A study of Mus musculus with 60 samples.

Results

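Trimethylation of lysine 27 of histone H3 (H3K27me3) was mapped by CUT&RUN-seq in the left and in the right hippocampus of exercised mice, and the pair of resulting peak lists is compared here. All peaks of both lists were taken, 18262 on the left and 9899 on the right, together 28161 of the 256375 peaks in the 12 lists of the series. Each list came from 3 libraries per side, 6 of the 60 samples, labelled H3K27me3, exercised, separate isolation and left or right whole hippocampus. The animals were male Emx1-NuTRAP mice, in which Cre driven by the Emx1 gene tags nuclei and ribosomes of mainly excitatory neurons and also of neural progenitors, and they had running wheels from postnatal day 21 to 41. A separate isolation used the nuclei of a single hippocampus per mouse and kept its partner for RNA, so the 2 lists stem from different mice. Lists of sedentary mice of the same line, housed without a wheel, and of a simultaneous isolation (SIT) serve for comparison. SIT took nuclei and RNA from the same tissue, with both hippocampi of a mouse combined. The number of H3K27me3 libraries differs between separate and SIT lists. The comparison asks how alike the hemispheres were when each was profiled alone. The values analysed are 1 peak list per side over its 3 libraries, without read counts, peak heights or p-values, so the depth behind a list is not known from them, no spread between mice can be given and no difference between the sides was tested. Intervals given below are Wilson 95% intervals over peaks and cover counting error only.

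H3K27me3 is deposited by Polycomb repressive complex 2 through its catalytic subunits Ezh1 and Ezh2, and is removed by demethylases such as Kdm6a and Kdm6b. In differentiated neurons it lies over genes of other lineages, above all developmental transcription factors, where it can form wide continuous domains, of which the Hox clusters are the best known. Genes that a neuron transcribes are usually free of the mark at their start sites. Over all 21911 protein-coding genes, 8.06% of start sites lay in a left and 4.99% in a right peak. Beside this, none of the 10 neuronal reference genes, among them Camk2a, Snap25 and Grin1, had its start site inside an H3K27me3 peak on either side, and Thy1 had its 5 left and 3 right peaks away from the start. Of 20 transcription factors of hippocampal excitatory neurons, the start site lay in a peak for 2 on the left (10%) and 1 on the right (5%). These counts are too near the share over all genes to check the labelled cell type.

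The sequences below show what lies at the centre of such regions, with every CG dinucleotide in capitals, read from the RefSeq copy of GRCm38.p6 on the plus strand. The first pair are the widest domains found on both sides, each at the centre of its longest stretch called in both lists.
Hoxc domain, chr15:103053545-103053844: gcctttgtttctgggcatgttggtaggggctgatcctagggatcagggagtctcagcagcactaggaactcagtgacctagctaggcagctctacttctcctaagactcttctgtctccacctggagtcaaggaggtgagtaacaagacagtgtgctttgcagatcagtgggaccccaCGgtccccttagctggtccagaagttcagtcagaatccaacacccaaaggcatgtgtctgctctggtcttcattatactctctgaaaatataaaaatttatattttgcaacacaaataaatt
Ebf3 domain, chr7:137228505-137228804: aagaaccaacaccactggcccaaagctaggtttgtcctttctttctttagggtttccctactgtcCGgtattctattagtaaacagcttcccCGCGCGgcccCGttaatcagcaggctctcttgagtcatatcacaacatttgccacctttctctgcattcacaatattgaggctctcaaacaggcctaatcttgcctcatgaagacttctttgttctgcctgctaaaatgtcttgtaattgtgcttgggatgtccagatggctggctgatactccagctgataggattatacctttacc
The next pair are the centres of the widest regions called on the left alone, and the last pair those of the widest called on the right alone.
Left alone, G630093K05Rik, chr13:47905641-47905940: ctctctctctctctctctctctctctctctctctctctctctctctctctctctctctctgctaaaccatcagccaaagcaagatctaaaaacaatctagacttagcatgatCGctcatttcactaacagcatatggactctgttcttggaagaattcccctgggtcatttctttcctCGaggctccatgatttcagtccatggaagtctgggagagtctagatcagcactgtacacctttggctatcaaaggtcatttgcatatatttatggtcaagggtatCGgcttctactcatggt
Left alone, Wwox, chr8:114850495-114850794: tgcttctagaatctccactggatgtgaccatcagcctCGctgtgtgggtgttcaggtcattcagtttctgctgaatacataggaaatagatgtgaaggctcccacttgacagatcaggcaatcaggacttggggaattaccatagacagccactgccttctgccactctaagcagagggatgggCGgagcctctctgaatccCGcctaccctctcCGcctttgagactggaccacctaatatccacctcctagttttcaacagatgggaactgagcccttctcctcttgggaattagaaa
Right alone, 4930556N09Rik, chr10:97127574-97127873: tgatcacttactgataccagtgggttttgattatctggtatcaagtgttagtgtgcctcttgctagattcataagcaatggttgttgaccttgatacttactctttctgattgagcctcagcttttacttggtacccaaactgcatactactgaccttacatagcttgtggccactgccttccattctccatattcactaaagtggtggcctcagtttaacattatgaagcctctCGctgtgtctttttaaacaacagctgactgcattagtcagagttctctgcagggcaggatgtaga
Right alone, Cldn12, chr5:5518486-5518785: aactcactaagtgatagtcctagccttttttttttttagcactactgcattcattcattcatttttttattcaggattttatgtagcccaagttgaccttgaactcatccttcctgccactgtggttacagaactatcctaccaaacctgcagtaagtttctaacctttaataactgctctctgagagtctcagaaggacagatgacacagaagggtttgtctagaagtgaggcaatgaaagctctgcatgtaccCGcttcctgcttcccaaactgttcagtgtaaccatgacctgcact
Of the windows of 300 bases, that of the Hoxc domain held 1 CG dinucleotide and that of the Ebf3 domain 5, and those printed from regions of a single side held 1 to 4. Over the 5 widest regions of each kind the windows held 1 to 9 on both sides, 2 to 6 on the left alone and 1 to 10 on the right alone, so the classes overlapped.

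The left list covered more of the genome, and most right peaks overlapped it. Peaks covered 92.4 Mb on the left and 41.2 Mb on the right, or 3.39% and 1.51% of the bases of chromosomes 1 to 19, X and Y. The left list held 1.84 times as many peaks (interval 1.80025 to 1.89052) and 2.24 times as many bases, while the median peak was only 1.10 times as wide, 3139.5 bp against 2861 bp. Of the right peaks, 8918 or 90.1% (89.5 to 90.7%) overlapped a left peak by 1 bp or more, and 5559 or 56.2% lay wholly inside left peaks. Of the left peaks, 7016 or 38.4% (37.7 to 39.1%) overlapped a right peak, and 354 or 1.94% were wholly covered. The remaining 11246 left peaks, 61.6% of the list, and 981 right peaks, 9.91% of that list, had no counterpart. Over bases, 36.5 Mb were shared, which was 88.6% of the right bases and 39.5% of the left bases, with a Jaccard index (shared over all covered bases) of 0.376. In such lists fewer nuclei with the mark, less of it per nucleus and a difference in depth or peak calling cannot be told apart. When the left list was limited to its 9899 widest peaks, equal in number to the right, the overlapped shares were 58.5% of left and 79.3% of right peaks.

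Merging both lists gave 18882 regions. Of these, 6655 were found on both sides, 11246 on the left alone and 981 on the right alone. The shared regions were wide, with a median of 6199 bp, against 2571 bp for left-alone and 1945 bp for right-alone regions. Although they were 35.2% of the regions, they held 60.7 of the 97.1 Mb covered by either list. The widest right-alone region measured 5825 bp, less than the median of the shared ones.

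Whether a left peak had a right counterpart went with its width. Among left peaks of 2 to 3 kb, 14.4% (13.6 to 15.3%) overlapped a right peak, among those of 5 to 10 kb 70.6% (69.0 to 72.1%), and all 502 left peaks of 20 kb or more did. In the other direction, 81.1% (79.5 to 82.5%) of right peaks under 2 kb and all 604 right peaks of 10 kb or more overlapped a left peak. Every peak of 20 kb or more on either side thus had a counterpart on the other.

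**Figure D1:**
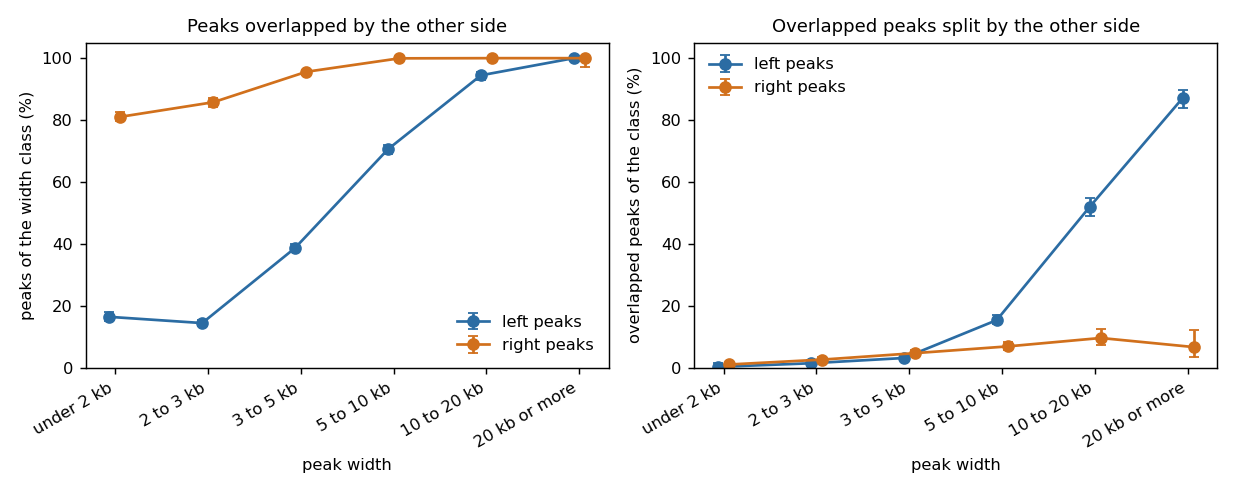
Share of peaks overlapped by the other side (left panel) and share of overlapped peaks that met 2 or more peaks of the other side (right panel), by peak width in 6 classes; points are percentages of 1 list per side and bars are Wilson 95% intervals. Left peaks rise from 16.4% overlapped under 2 kb to 100% at 20 kb or more, and from 0.258% to 87.1% split, while split right peaks stay below 10%.

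Wide left domains were broken up on the right, and the reverse was uncommon. Of the 7016 overlapped left peaks, 1432 or 20.4% (19.5 to 21.4%) met 2 or more right peaks, and of the 8918 overlapped right peaks, 354 or 3.97% (3.58 to 4.39%) met 2 or more left peaks. The left splits comprised 964 peaks met by 2 right peaks, 286 by 3 and 182 by 4 or more, up to 13. The right splits comprised 347 peaks met by 2 left peaks and 7 by 3. Among left peaks of 20 kb or more, 437 of 502 or 87.1% (83.8 to 89.7%) were split on the right, against 9 of 135 or 6.67% (3.55 to 12.2%) of right peaks of that width on the left. The same 502 left peaks were split in 61.2% of cases by the sedentary left list, 26.5% by the sedentary right, 19.9% by the exercised SIT and 38.6% by the sedentary SIT list, so breaks in them were not limited to the exercised right list. Merging peaks of a list that lay within 5 kb of each other lowered the shares to 15.0% and 0.490%.

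The breaks inside split left peaks were short. Between neighbouring right pieces lay 2263 gaps with a median of 1264 bp (quartiles 552 and 2511.5 bp), and pieces, gaps and outer flanks made up 69.1%, 16.0% and 14.9% of the bases of these peaks. The mark was called in most of the gap bases in the other H3K27me3 lists. The shares were 82.9% in the sedentary left list, 95.8% in the sedentary right, 97.9% in the exercised SIT and 87.2% in the sedentary SIT list. Starts of protein-coding genes lay in pieces at 17.9 per Mb (322 starts), in gaps at 15.6 per Mb (65 starts) and in flanks at 7.46 per Mb (29 starts). Among segments of 500 bp or more, the median CG density was 1.06 per 100 bases in pieces, 0.935 in gaps and 0.909 in flanks, and the median GC content was 44.4%, 44.4% and 44.1%.

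Where exactly 1 left and 1 right peak met, the left one was usually wider. There were 5093 such pairs, holding 27.9% of left and 51.4% of right peaks. The left peak was the wider in 4287 or 84.2% of them, with a median ratio of 1.49 (quartiles 1.12 and 2.20) and median widths of 4823 bp on the left and 2846 bp on the right. The right peak lay inside the left in 2733 pairs and the left inside the right in 278. No pair had the same start and end.

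**Figure D2:**
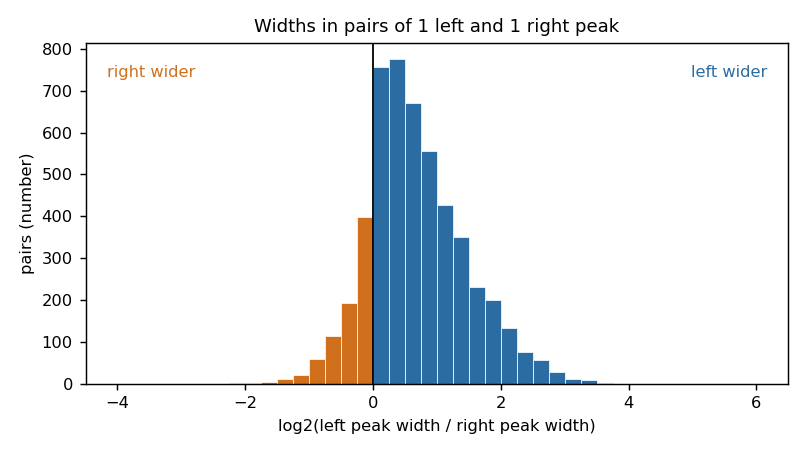
Number of pairs of 1 left and 1 right peak (vertical axis) by the log2 ratio of their widths, left over right (horizontal axis), in bins of 0.25; blue bars are pairs with the left peak wider and orange bars pairs with the right peak wider. Of 5093 pairs, 4287 lie to the right of 0, with a median width ratio of 1.49.

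The 5 widest shared regions were all domains over developmental regulators. The widest, chr15:102896607-103090399, spans the Hoxc cluster and its antisense RNA Hotair, to which the left peak was assigned, and was 1 left peak of 193793 bp met by 13 right peaks of 1717 to 36458 bp that covered 85.4% of it. The second, chr7:137182261-137336912, held the start of Ebf3, an early B-cell factor family member that acts in neuronal differentiation, and was 1 left peak and 6 right peaks covering 92.7%. The third, chr11:44710148-44856040 in introns of Ebf1, had 3 left and 12 right peaks, and the right ones covered 87.1%. The fourth, chr11:96230040-96351705, carried 8 Hoxb starts in 2 left and 5 right peaks, with 84.3% covered on the right. The fifth, chr12:56436939-56549304, contained Nkx2-1, a regulator of ventral forebrain and lung, with 1 left and 4 right peaks and 96.5% covered on the right. All 5 were covered to 96.3% or more in each of the other H3K27me3 lists.

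The 5 left peaks met by the most right peaks were picked by that number, so their being split on the right follows from the choice. Beside the Hoxc domain, they were in Cux1, a cut-homeobox gene of cortical neurons (87201 bp, 10 right peaks), Ebf1 (123695 bp, 9), Ebf2 (95735 bp, 9) and Ddah1, which encodes a dimethylarginine hydrolase (88981 bp, 9). The right peaks covered 68.4% of the Ebf2 domain and 83.3 to 91.5% of the others. The Ebf1, Ebf2 and Ddah1 domains were each a single peak in the sedentary right and the exercised SIT lists. In the sedentary left list the Ebf1 domain was 3 peaks, Ebf2 1 and Ddah1 4, and in the sedentary SIT list they were 1, 1 and 2. The Cux1 domain was 6 peaks in the sedentary left list and 1 in each of the remaining lists. The 5 right peaks met by the most left peaks were narrower, each met by 3, and lay at Lyplal1 (24404 bp), the collagen gene Col1a2 (15870 bp), Ebf1 (12196 bp), 4930467E23Rik (12101 bp) and Sash1 (11484 bp).

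Over the 4 Hox clusters, which order cell identity along the body axis, the right list covered less and in more pieces. The Hoxc cluster was covered to 100% by 1 peak on the left and to 88.5% by 9 peaks on the right. For Hoxd the values were 99.8% in 1 peak and 92.6% in 8 peaks, for Hoxb 94.6% in 7 and 76.1% in 9, and for Hoxa 99.4% in 2 and 98.3% in 3. In the other 4 H3K27me3 lists the Hoxc cluster was 1 peak at 100%, and the other 3 clusters had 1 to 6 peaks. The starts of Hoxb2, Hoxb4, Hoxc8, Hoxc11, Hoxc13 and Hoxd9 lay in a left peak and in a break of the right list, and those of Hoxa4, Hoxa13 and Hoxd13 in a break on both sides. Of the 39 Hox starts 30 were thus in both lists and 6 on the left only, against 4.66% and 3.39% of starts over all protein-coding genes.

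**Figure D3:**
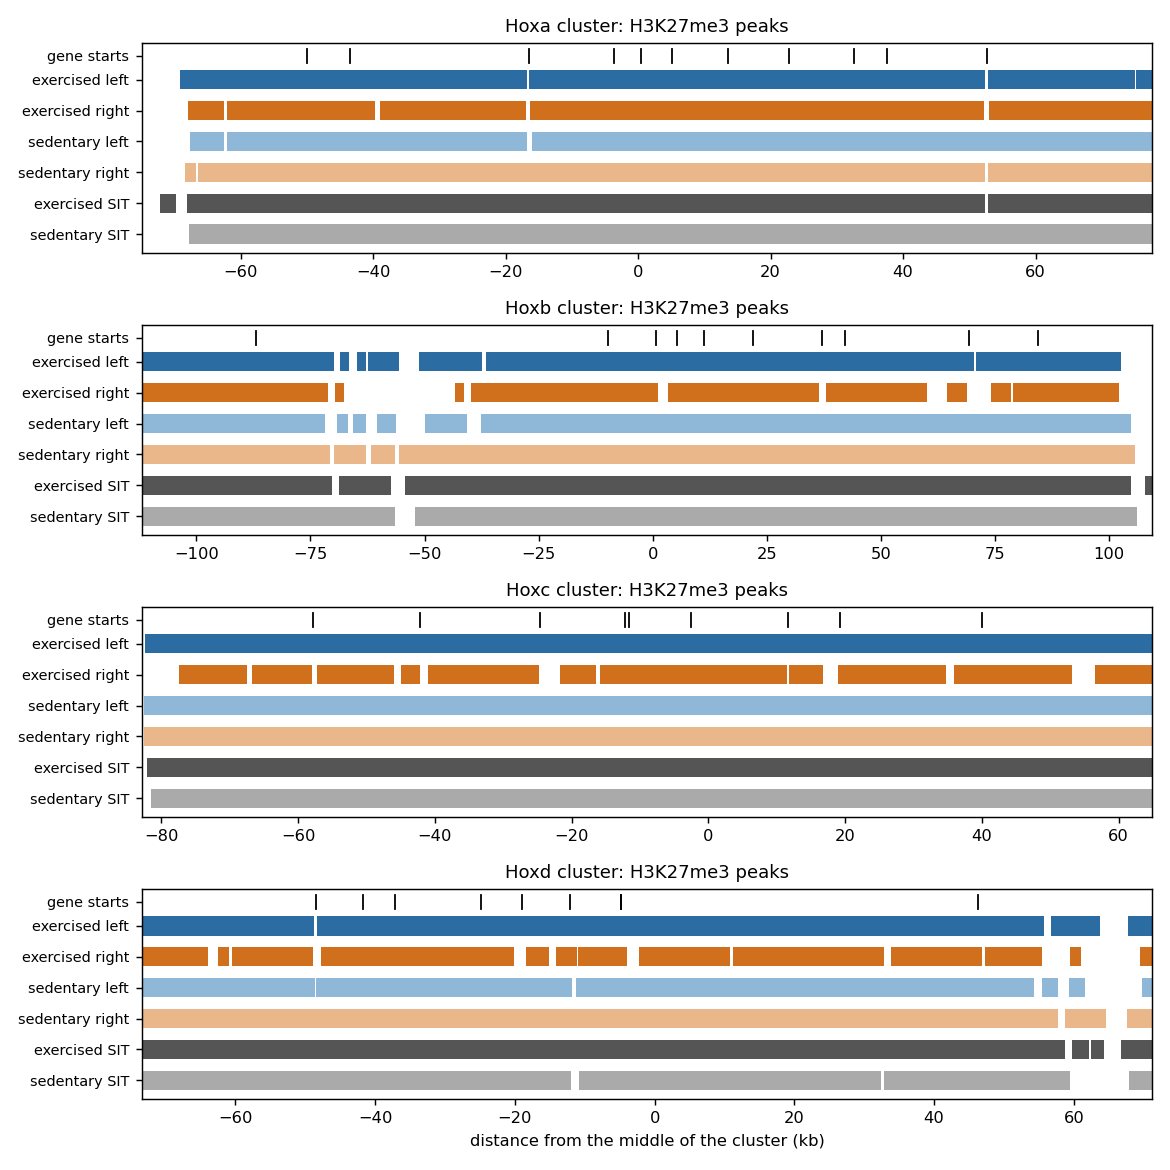
H3K27me3 peaks over the Hoxa, Hoxb, Hoxc and Hoxd clusters in the 6 lists, drawn as bars along the distance in kb from the middle of each cluster, with black ticks at gene starts; white spaces are not called. The exercised right row (orange) is broken into 9 peaks over Hoxc and 8 over Hoxd where the exercised left row (blue) has 1.

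Counted by the symbols in the lists, Hox genes ran the other way, since each peak carries the symbol of 1 gene. In this count 13 of 39 Hox genes were listed on the right alone and 0 on the left alone, and 5 in both, where 4.93% of all listed genes were on the right alone and 36% on the left alone. All 13, among them Hoxb8, Hoxc4, Hoxb5 and Hoxd10, had their start sites inside a left peak, and 10 had them inside a right peak. A single left peak of 34060 bp likewise held the starts of Dlx1 and Dlx2, homeobox genes of inhibitory neuron development, which were listed on the right alone.

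Left-alone peaks were less often at promoters than shared ones. Promoter peaks, within 3 kb of a start site, were 19.4% (18.8 to 19.9%) of the left and 23.7% (22.9 to 24.5%) of the right list, a difference of -4.33 percentage points (-5.35 to -3.32), which turned to 0.859 when the left list was limited to its widest 9899 peaks. Within each list the contrast was wider than between them. Overlapped peaks were also the wider ones, with medians of 5592.5 against 2571 bp on the left and 3068.5 against 1945 bp on the right. The shares by overlap were not matched for width, and the part of width in them was not tested. Promoters made up 28.9% of overlapped and 13.4% of not overlapped left peaks, and 24.8% and 13.5% of right peaks. Distal intergenic peaks made up 39.9% and 49.7% on the left and 42.3% and 51.1% on the right. Of left promoter peaks 57.3% (55.6 to 58.9%) overlapped a right peak, against 29.4% (28.0 to 30.8%) of intronic and 33.4% (32.4 to 34.4%) of distal ones. On the right the shares were 94.4% (93.4 to 95.2%), 89.3% and 88.3%.

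Exonic peaks were 10.9% of the left and 9.53% of the right list, and intronic peaks 21.0% and 21.2%. The median distance to the nearest start site was 21510 bp for overlapped and 36081 bp for not overlapped left peaks, and 23227.5 bp and 30673 bp on the right. A start site lay inside 22.3% of overlapped and 6.51% of not overlapped left peaks, and these values were likewise not matched for width. Left-alone peaks lay a median of 20116 bp from the nearest right peak, and 21.0% of them within 5 kb. Right-alone peaks lay closer, at a median of 6542 bp, with 44.5% within 5 kb of a left peak. The left list holds more peaks and bases to be near to, and the distances were not adjusted for this.

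Base composition differed little between the classes. The median GC content was 44.5% in shared, 43.9% in left-alone and 43.4% in right-alone regions, against 41.7% over these chromosomes, and the median CG density was 1.10, 0.934 and 0.874 per 100 bases against 0.826. The quartiles overlapped widely, 0.760 to 1.51 in shared and 0.628 to 1.30 in left-alone regions. Limited to regions of 2 to 3 kb, a choice made after the data were seen, the densities were 1.03, 0.911 and 0.845.

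The excess on the left was present on each of chromosomes 1 to 19, from 1.49 times as many peaks on chromosome 10 to 2.77 times on chromosome 15, and the share of right peaks overlapped ran from 86.3% to 93.9%. The sex chromosomes stood apart from these, with 73 left and 6 right peaks on X and 4 and 0 on Y.

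Most peaks called on a single side were also called in other H3K27me3 lists of the series. Of the 11246 left-alone peaks, 81.7% (81.0 to 82.4%) overlapped the exercised SIT list, 72.5% (71.7 to 73.3%) the sedentary right, 43.1% (42.2 to 44.0%) the sedentary left and 35.8% (34.9 to 36.7%) the sedentary SIT list. Of the 981 right-alone peaks the shares, in the same order, were 75.2% (72.4 to 77.8%), 65.1% (62.1 to 68.1%), 37.5% (34.5 to 40.6%) and 26.1% (23.4 to 28.9%). The order was the same for both sides and followed the length of the lists, which hold 25693, 21790, 14491 and 10279 peaks. Left-alone peaks were met more often by the sedentary right than by the sedentary left list, and the part of list length in this was not tested. In none of these 4 lists were 1234 left-alone (11.0%) and 149 right-alone peaks (15.2%), while 2677 and 148 were in all 4.

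**Figure D4:**
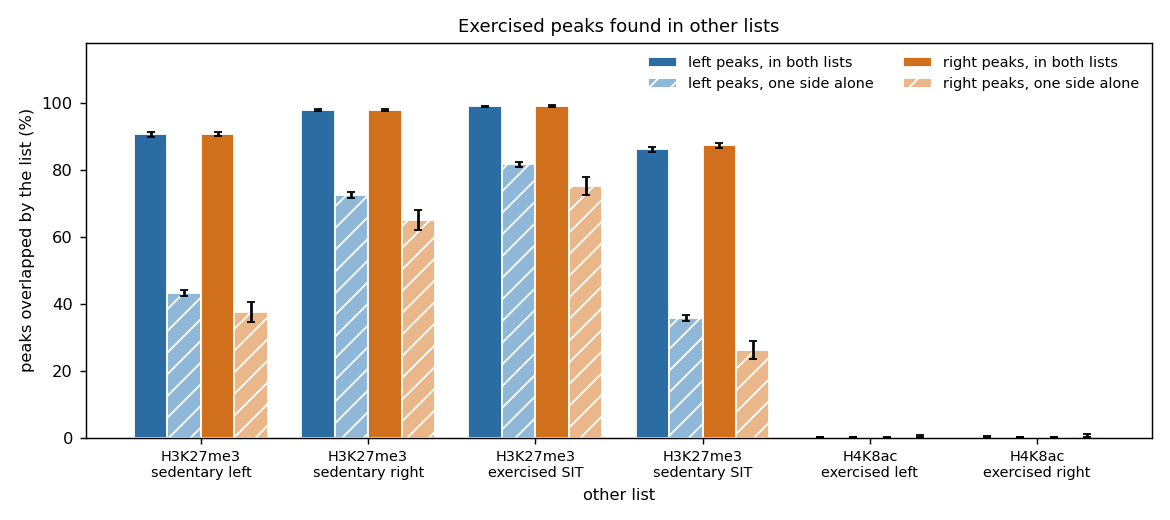
Share of exercised left (blue) and right (orange) H3K27me3 peaks overlapped by each of 4 other H3K27me3 lists and of the 2 exercised H4K8ac lists, for peaks in both exercised lists (solid) and on one side alone (hatched); bars start at 0 and error bars are Wilson 95% intervals. Peaks on one side alone reach 81.7% and 75.2% in the exercised SIT list, and every share with H4K8ac is below 1%.

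H4K8ac, an acetylation mark of active chromatin mapped in the same design, hardly met H3K27me3 peaks. By the study's methods some exercised H4K8ac libraries were dropped for a high false discovery rate, and the 2 exercised H4K8ac lists used here are shorter than the sedentary ones, with 12168 left and 13715 right peaks against 36425 and 25159. The H4K8ac list of the matching side overlapped 0.0876% of left and 0.162% of right H3K27me3 peaks. Of the 981 right-alone peaks, 2 (0.204%) overlapped the left and 4 (0.408%) the right H4K8ac list. No protein-coding start site lay in peaks of both marks on the same side.

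In sedentary mice the sides stood the other way round. The sedentary left list held 0.665 times as many peaks as the sedentary right and 0.645 times as many bases. The shorter list lay mostly inside the longer there too, 90.2% (89.7 to 90.7%) of sedentary left peaks overlapping a sedentary right peak and 52.6% (51.9 to 53.3%) the reverse. Sedentary right peaks of 20 kb or more were split in the sedentary left list in 481 of 676 cases (71.2%), and sedentary left peaks of that width in the sedentary right list in 41 of 361 (11.4%).

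At the level of genes, 5475 symbols were listed on either side, 3236 of them on both. On the left alone were 1969 (36%) and on the right alone 270 (4.93%). Among the shared genes, 2934 had more bases under peaks on the left, with a median ratio of 1.90. A single peak accounted for 1399 of the left-alone and 250 of the right-alone genes. Of the right-alone genes, 84 had a peak that overlapped a left peak assigned to another gene, which was so for 35 of the left-alone genes. With the left list limited to its widest 9899 peaks, the numbers were 798 on the left alone and 654 on the right alone.

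A count that does not rest on the assigned symbols was made from the start sites of 21911 protein-coding genes. Of these, 1022 (4.66%) lay in a peak on both sides, 743 (3.39%) in a left peak only and 72 (0.329%) in a right peak only. The left-only starts were in left peaks without any right overlap in 463 cases and in a left peak that a right peak met elsewhere in 280, of which 94 were in peaks met by 2 or more. The right-only starts lay a median of 1171 bp from a left peak, and 42 of 72 were within 2 kb. For left-only starts the median to a right peak was 16130 bp, and 240 of 743 were within 2 kb. The left list is the longer one, and these distances were not adjusted for that. Of the 743, 589 lay in a sedentary right and 413 in a sedentary left peak, and of the 72, 50 and 34. Of the 72, 13 were in none of the other 4 H3K27me3 lists, as were 66 of the 743.

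The widest left-alone regions were single peaks away from protein-coding starts. They were assigned to G630093K05Rik (chr13:47896019-47915562, 19544 bp), Wwox, which encodes an oxidoreductase (intron, 16112 bp), the co-repressor gene Tle3 (distal, 15715 bp), Pou4f1, a sensory neuron regulator (15333 bp), and the laminin gene Lama1 (intron, 15036 bp). Each was also partly called in all 4 other H3K27me3 lists, from 35.5% of its width upwards. The widest right-alone regions were narrower and were assigned to 4930556N09Rik (5825 bp), the claudin gene Cldn12 (promoter, 4977 bp), Gm12409 (4904 bp), Aebp2, a cofactor of Polycomb repressive complex 2 (4586 bp, 53096 bp from the start site), and 4933430N04Rik (4549 bp). Of these 5, all overlapped the sedentary right and the exercised SIT lists, and those at Aebp2 and 4933430N04Rik also the sedentary left list.

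Some genes carried many left peaks and none on the right. Among genes with no peak that met the other side, Sorcs3, which encodes a neuronal sorting receptor, had 19 left peaks summing to 55321 bp and 0 on the right, and it had 9 in the sedentary left, 35 in the sedentary right, 39 in the exercised SIT and 14 in the sedentary SIT list. Ppp2r2b, a regulatory subunit of protein phosphatase 2A, had 16 left peaks over 49710 bp, the teneurin gene Tenm4 13 over 40125 bp, Gm10637 10 over 38134 bp and Mir6368 7 over 33891 bp. All 5 also had peaks in each of the other 4 lists. The right-alone counterparts were small, led by Pik3cd, a phosphoinositide kinase subunit of leukocytes (2 peaks, 6200 bp), Kprp (6012 bp), Dipk2a (5150 bp), Cldn12 (4977 bp) and Gm12409 (4904 bp).

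Genes listed on the same side alone in exercised and sedentary mice numbered 75 on the left, 3.81% of the 1969, and 56 on the right, 20.7% of the 270. Over all 6301 genes of the sedentary separate lists, 4.49% were on the left alone and 25.9% on the right alone. On the left alone in exercised and on the right alone in sedentary mice were 580 genes (29.5%), and 25 (9.26%) were the reverse. The left genes with the most bases were A730056A06Rik (8521 bp exercised, 4740 bp sedentary), Mir692-3 (7392 and 4884 bp), 4930488B22Rik (7613 and 2203 bp) and Sytl4 on X (3351 and 6191 bp). On the right they were Ppp4r1l-ps (7428 and 22500 bp), Gm12409 (4904 and 8841 bp), Dlx2 (6989 and 4621 bp), the PAR bZIP factor Hlf (3843 and 7699 bp) and Cldn12 (4977 and 5538 bp). The peaks at Ppp4r1l-ps and Dlx2 overlapped a left peak assigned to another gene.

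Of 96 homeobox and paired-box genes outside the Hox clusters, 91 had the start site in a left and 76 in a right peak, 15 on the left only and 0 on the right only. Over all protein-coding genes 57.9% of the starts in a left peak were also in a right peak, and for this list the share was 83.5%. At Barhl2, a regulator of neuron subtype in retina and spinal cord, the start lay in a left peak of 70565 bp and in a break on the right, although the gene had 12 right peaks summing to 97198 bp against 6 left peaks over 125560 bp. The Barhl2 start was outside the peaks of the sedentary left list as well. The start of Irx2 lay in a left peak of 41074 bp and outside the right peaks. Its widest right peak, of 16447 bp, was still annotated as a promoter peak at distance 0 from the nearest transcript start. Pax3, a neural crest regulator, had 13 peaks on each side over 193282 bp on the left and 124814 bp on the right. Tlx1 and Nkx2-3 had wide left peaks of 56655 and 60352 bp, and the widest right ones were 30800 and 26273 bp. By symbol, Dlx1, Pax6, Dlx2 and Pitx3 were on the right alone, and all 4 starts lay in a left peak.

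**Figure D5:**
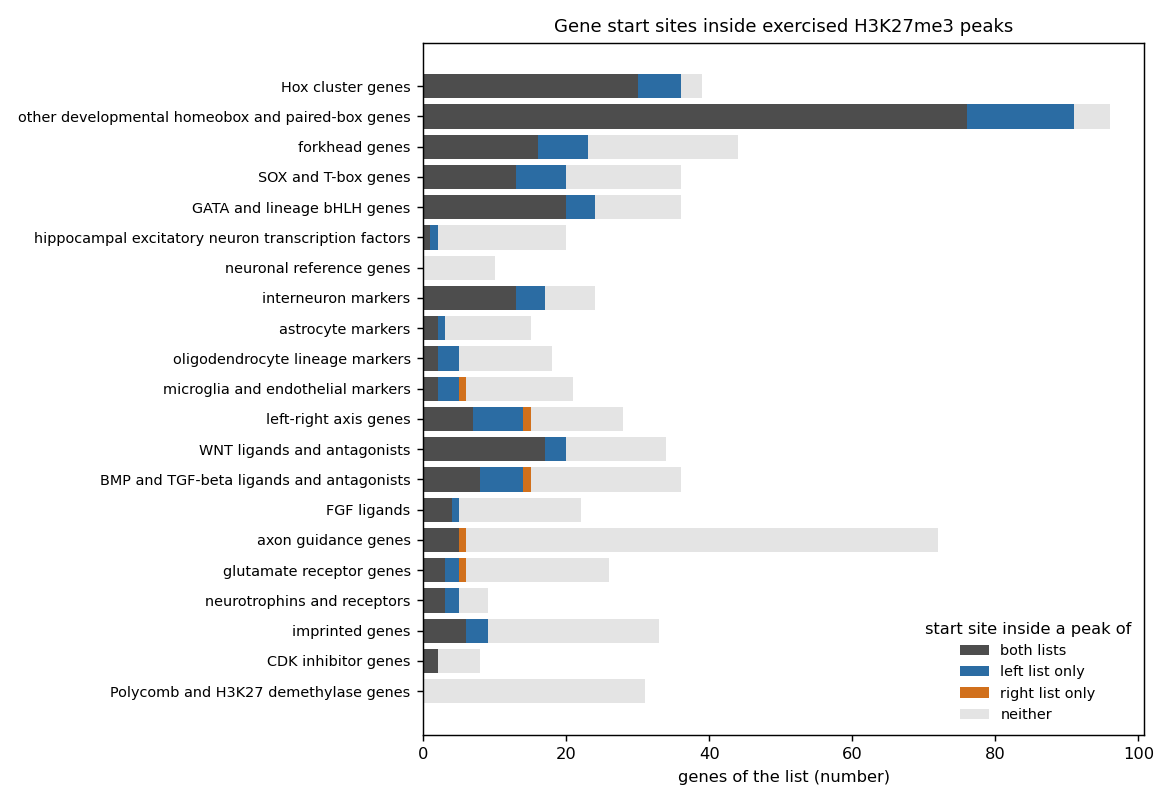
Number of genes in each of 21 lists whose start site lay inside exercised H3K27me3 peaks of both lists, of the left only, of the right only or of neither; bars are stacked counts starting at 0. Homeobox genes reach 76 in both and 15 on the left only, and the neuronal reference and Polycomb genes have none.

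Other transcription factor families are given by starts in both lists, left only and right only, which over all protein-coding genes numbered 1022, 743 and 72. The share of left starts also in a right peak was 69.6% for forkhead, 65% for SOX and T-box and 83.3% for GATA and lineage bHLH genes, against 57.9% over all genes. Of 44 forkhead genes, 16 starts were in both lists, 7 on the left only and 0 on the right only. Foxd1 had a left peak of 40454 bp over its start and 9 right peaks, none over the start, and Foxa2, Foxa1 and Foxd3 had widest left peaks of 47695, 42816 and 34676 bp against 26153, 29556 and 18050 bp. By symbol, Foxn1 and Foxa3 were on the left alone. Of 36 SOX and T-box genes the counts were 13, 7 and 0. Sox1, a factor of neural progenitors, had 1 left peak of 41733 bp, met by 2 right peaks, of which 1 was assigned to Sox1ot and 1 to no gene, and the limb regulators Tbx5 and Tbx3 had left peaks of 87387 and 78485 bp against 35370 and 28774 bp on the right. Eomes, a factor of intermediate neuronal progenitors, had 71429 bp in 1 left peak and 34191 bp in 4 right peaks, and Sox6 had 72 left and 53 right peaks. Sox2 and Sox21 were on the right alone and Tbx22 on the left alone by symbol, and the starts of Sox2 and Sox21 lay in left peaks of 20583 and 35840 bp. Of 36 GATA and lineage bHLH genes the counts were 20, 4 and 0, and Gata5 was on the left alone by symbol with its start in a peak on both sides. Olig3, Gata4, Twist1 and Tcf21 had widest left peaks of 65807, 53185, 36177 and 31213 bp and right peaks of 52739, 20567, 14180 and 16542 bp.

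Of the hippocampal excitatory neuron factors, 10% of starts were in a left and 5% in a right peak, against 8.06% and 4.99% over all genes. The start of Prox1, which specifies dentate granule cells, lay in a left peak only. Prox1 had 28 left peaks over 97088 bp and 3 right peaks over 7292 bp, and 23, 23, 23 and 14 peaks in the sedentary left, sedentary right, exercised SIT and sedentary SIT lists. Meis2 had 6 left peaks against 3, and Emx2 and Etv1 were on the left alone, none with its start in a peak. H4K8ac peaks held 5 of these 20 starts on the left and 4 on the right, against 4.74% and 5.89% of starts over all protein-coding genes.

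Counts for markers of other cell types are set beside those over all protein-coding genes, of which 4.66% of starts were in both lists, 3.39% on the left only and 0.329% on the right only, and over all listed genes, of which 36% were on the left alone and 4.93% on the right alone by symbol. Differences between the marker lists were not tested. Of 24 interneuron marker starts, 13 were in both lists and 4, those of Vip, Calb2, Adarb2 and Dlx2, on the left only. Reln, the secreted guide of neuronal layering, had 41 left and 40 right peaks over 318299 and 176889 bp, and Dlx5, Sp8 and Lhx6 had widest peaks of 44080, 30520 and 24922 bp on the left and 49119, 27763 and 23403 bp on the right. By symbol, 6 interneuron markers were on the left alone, Nos1 with the widest peak at 3872 bp, and 3 on the right alone, Dlx1, Dlx2 and the vesicular GABA transporter gene Slc32a1. The start of Slc32a1 nevertheless lay in a peak on both sides, of 6797 bp on the left and 6526 bp on the right. The counts of starts in both, left only and right only were 2, 1 and 0 of 15 astrocyte markers, 2, 3 and 0 of 18 oligodendrocyte lineage markers and 2, 3 and 1 of 21 microglia and endothelial markers. Gja1, which encodes connexin 43, had a left peak of 6633 bp and none on the right, and Slc1a3, Gjb6 and Aqp4 had widest left peaks of 12145, 10362 and 4645 bp against 1800, 9152 and 2821 bp. Olig2 had 4 left and 11 right peaks with 44436 bp and 5411 bp over the start, and the start of Pdgfra was in a left peak of 32405 bp and in a break on the right. Olig1 and Sox10 had widest peaks of 26664 and 8150 bp on the left against 21253 and 4039 bp, and Cspg4 was on the left alone. Flt1, C1qc, Vwf and Cldn5 were on both sides, Cx3cr1 and Cdh5 on the left alone, and the start of the microglial gene Tmem119 lay in a right peak of 5126 bp with a left peak 1266 bp away.

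Genes that set up the left-right body axis were listed separately. Of 28, 7 starts were in both lists, 7 on the left only and 1, that of Snai1, on the right only, so that 50% of the left starts were also on the right against 57.9% over all genes. Nodal, a ligand of left identity, had 8335 bp on the left and 1512 bp on the right, with the start in a left peak of 5796 bp only. Shh had 7 left and 3 right peaks and its start in a left peak only. Tbx20, Hand1 and Nkx2-5 had widest left peaks of 24765, 20219 and 19282 bp and right peaks of 22191, 19957 and 17251 bp. Cfc1, Gdf3 and Lefty2 were on the left alone by symbol, and Lefty2 was also on a single side in sedentary mice, with 0 left and 3 right peaks.

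Over all protein-coding genes 1765 starts lay in left and 1094 in right peaks, and the signalling lists are given beside this. The share of left starts also in a right peak was 85% for WNT, 57.1% for BMP and TGF-beta and 80% for FGF genes, against 57.9% over all genes. Of 34 WNT ligands and antagonists the counts of starts in both, left only and right only were 17, 3 and 0. Wif1, a secreted WNT inhibitor, had 7 left and 14 right peaks over 88983 and 67696 bp, and Wnt8b, Dkk1 and Wnt3a had 1 left and 2 right peaks each. Wnt7a and Dkk4 were on the left alone. Of 36 BMP and TGF-beta genes the counts were 8, 6 and 1, with Bmp3 on the right only and Bmp4 in a left peak of 25452 bp. Gdf6, Bmper and Bmp7 had widest left peaks of 21590, 15119 and 14325 bp against 19943, 7794 and 10268 bp, while Gdf7 was wider on the right, 12654 bp against 8663 bp. By symbol 15 of these genes were on both sides and 5 on the left alone, beside 36% of all listed genes on the left alone. The widest of the 5 were Bmp5, Bmp6, Bmp8a and Gdf10. Of 22 FGF ligands the counts were 4, 1 and 0, with Fgf12 and Fgf23 on the left alone and Fgf20, Fgf8, Fgf6 and Fgf15 at 13993, 12708, 10100 and 9324 bp on the left against 9098, 4641, 8674 and 4556 bp.

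Over all protein-coding genes 91.6% of starts lay in neither list, and neuronal surface and synapse genes are set beside this. Of 72 axon guidance genes, 66 starts (91.7%) were in neither list, 5 in both and 1, that of Sema3a, on the right only. The netrin receptor gene Unc5d had 41 left and 12 right peaks, Ntn4 had 59712 bp on the left against 27236 bp, Unc5b and Ntn1 had 9 and 8 left and 3 and 7 right peaks, and Epha5 and Epha8 were on the left alone. Of 26 glutamate receptor genes, 20 starts (76.9%) were in neither list, 3 were in both lists, 2 on the left only and 1, that of Grm8, on the right only. The kainate receptor gene Grik1 had 35 left and 18 right peaks over 261428 and 72041 bp, Grin2c and Grik3 had widest peaks of 12292 and 10496 bp against 10990 and 6295 bp, and Grin3a and Grin3b were on the left alone. Among 9 neurotrophin genes, Bdnf had no peak on either side, Ntf3 was on the left alone, and Ngfr had 38527 bp on the left and 18916 bp on the right.

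Imprinted, cell cycle and Polycomb genes complete the lists, against the same shares over all genes of 4.66% of starts in both, 3.39% on the left only and 91.6% in neither. Of 33 imprinted genes with an annotated start, 6 starts were in both lists and 3 on the left only, and Grb10, Ddc, Gnas and Dlk1 had 145076, 47485, 29042 and 60728 bp on the left against 94889, 19006, 14347 and 22121 bp. By symbol 10 imprinted genes were on both sides and 7 on the left alone, beside 36% of all listed genes on the left alone. Ndn, Rtl1, Sgce and Cdkn1c were the widest of the 7, and the widest peak of Rtl1 met a right peak assigned to another gene. At Cdkn2a, the senescence locus that Polycomb silences in dividing cells, a left peak of 52058 bp held the starts of Cdkn2a and Cdkn2b, and the right list had peaks of 27531 and 6503 bp over them. Of 8 CDK inhibitor genes, 3 were on both sides, 3 on the left alone and 1 on the right alone. Cdkn2b was on the right alone by symbol, Cdkn1c, Cdkn3 and Cdkn1a on the left alone, and Cdkn2c had 11671 bp on the left and 6994 bp on the right. Of 31 Polycomb and H3K27 demethylase genes, no start was in either list. Aebp2 had 18 left and 17 right peaks away from its start, Cbx8 had more bases on the right, 12837 bp against 10768 bp, Jarid2 was on the left alone and Phf19 on the right alone.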

How the data were processed

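Per the labels and the study's methods, CUT&RUN reads were aligned to mm10 (GRCm38) with Bowtie2 2.4.1, peaks were called with SEACR in its stringent mode at the setting that keeps the top 1% of regions, and ChIPseeker 1.8.6 assigned each peak an annotation class, its nearest transcript and 1 gene symbol. The lists were used as deposited by the authors: each row holds a peak's coordinates, width in bp and distance in bp to the nearest start site, with no read count, signal, fold or score. How the 3 libraries of a side were combined into 1 list is not given in the sources used here, nor is the depth of a list; the methods state only a minimum per library. Reads and signal tracks of single libraries were not analysed here. No list of the IgG control was used.

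Overlaps, merged regions, widths and gene counts were computed with Python 3.11.15, pandas 2.3.3, numpy 2.4.6 and scipy 1.17.1. Peaks overlapped if they shared 1 bp or more, and a peak was called split if it met 2 or more peaks of the other list. The interval functions were checked base by base on 20 of 20 artificial interval sets. Start sites came from GENCODE M21 and sequences from the GRCm38.p6 reference, the build of the files. With 1 pooled list per side there is no test and no p-value. Columns of per-sample values left unused numbered 0.

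Regions and genes were named by width, number of pieces and summed width, the 5 highest of each, and list members by their widest peaks. The comparison, the gene lists and the named-gene rule were chosen with earlier results of these data known. Genes singled out for a start site in 1 list (such as Tmem119, Snai1 and Sema3a) or a many-peak contrast (such as Prox1, Reln and Sox6) were partly chosen after their values were seen. Some items the rule names are not reported here.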

Additional observations from a re-analysis of the deposited data

Results flagged for a closer look

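The ratio of H3K27me3 peak numbers, left over right, was 1.84 in exercised and 0.665 in sedentary mice, so the longer list was on opposite sides. Each value rests on 1 pooled list per side, and the difference between them was not tested. The 2 exercised H4K8ac lists had a ratio of 0.887, and by the methods some libraries of that mark were dropped. Depth per list, which the values used here do not hold, cannot be told apart from side here.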

How the results depend on the processing

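Of 57 alternatives to 15 results, 27 stayed within the main counting interval (gene counts and composition within 1.5 times), 29 moved and 1 reversed; all 11 on chromosomes 1 to 19 alone stayed. For ratios of bases and widths and the Jaccard index, the relative width of the intervals of the peak ratio and of the left overlap was used. Merging peaks within 5 kb gave a peak-number ratio of 1.70 and a width ratio of 1.16. The left overlapped share became 58.5% with equal numbers of peaks by width, 40.6% for the widest 50% of each list, 20.02% with 50% reciprocal overlap and 25.2% with 50% of the peak covered, and the right share 79.3%, 91.1%, 36.9% and 85.3%. The Jaccard index became 0.433 with equal numbers and 0.385 for the widest 50%. The promoter difference reversed to 0.859 percentage points with equal numbers and was -3.08 for promoters within 1 kb alone. The left split share became 24.5% with equal numbers, 17.3% after merging within 1 kb and 15.0% within 5 kb, and the right 2.396%, 2.20% and 0.490%. Left-alone genes numbered 798 with equal numbers, 1146 for promoter peaks alone, 570 with 2 or more peaks and 743 by start site, and right-alone genes 654 with equal numbers, 20 with 2 or more peaks and 72 by start site. Left-alone peaks found in the sedentary right list became 61.6% with 50% covered and 74.6% for the widest 50%, and right-alone peaks in the sedentary left list 31.6% with 50% covered. Equal numbers drop the narrowest left peaks by construction; the cause of the other shifts was not tested.

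No paired analysis was possible because the values used here are 1 list per side over its 3 libraries, and for the same reason leaving out a replicate was not done. Depth per list is unknown, so a peak missing from a list was not called there and is not shown to lack the mark.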
